A study of Mus musculus with 8 samples.

Results

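BRG1 occupancy in exons that lie away from promoters was examined in mouse primary uterine stromal cells. The members are peaks of the pooled BRG1 list on chromosomes 1 to 19 that overlapped a peak in at least 2 of the 3 BRG1 replicates, lay more than 2 kb from every transcription start site (TSS) of the GENCODE annotation of mm10, and had their summit inside an exon of a protein-coding gene. They were therefore chosen by BRG1 values, and everything below that rests on BRG1 alone is a description without a test. Of the 82669 pooled BRG1 peaks, 81327 were on these chromosomes, 30580 of those were found in at least 2 replicates, 12951 of those were distal to every TSS, and 694 of those had an exonic summit. The summit lay in the coding part of an internal exon in 214 members, in the coding part of a last exon in 209 and in a 3' UTR in 209. The other members comprised 56 in exons of noncoding transcripts of the host gene, 5 in 5' UTRs and 1 in a coding exon of a single-exon transcript. Noncoding here means any annotated transcript type other than protein-coding. Distal peaks chosen in the same way in introns (5289 peaks) and in intergenic sequence (6151 peaks) serve for comparison.

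Chromatin immunocleavage sequencing (ChIC-Seq) guides a protein A–micrococcal nuclease fusion to an antigen with an antibody, and the fragments released around the antigen are sequenced. The antibodies were against PBRM1 and BRG1, with 3 replicates each, and both groups consist of WT cells labelled day 4 (D4) of pregnancy with no treatment or allele that differs between them. Uterine horns of mice aged 8 to 12 weeks, 5 to 10 per preparation, were pooled before the stromal cells were plated, and the protocol in the labels calls these horns pseudopregnant. By the labels each library held 50000 cells fixed in 1% formaldehyde for 5 minutes, whereas the methods of the study give more cells and allow longer fixation. The study calls the replicates biological but the labels do not tie them to separate preparations, and the 2 IgG libraries were not analysed here.

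SWI/SNF complexes slide and evict nucleosomes with the energy of ATP. BRG1, encoded by *Smarca4*, is one of the alternative ATPases of these complexes, and PBRM1 (BAF180) is a bromodomain subunit found only in the PBAF form, so that a site with both antigens can hold PBAF and a site with BRG1 alone can hold another form. Such complexes are known mainly at promoters and enhancers. Exons can also carry regulatory sequence, and long or terminal coding exons are often rich in G, C and CpG dinucleotides, the feature that marks CpG islands.

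The CpG content at the summits varied among coding members. To show this, 30 bases centred on the pooled BRG1 summit are given for the 4 members with the highest BRG1 fold enrichment in each coding class. They are read from the reference (RefSeq GRCm38.p6, the sequence of mm10) on the strand of the gene, 5′ to 3′, with each CG in capitals. In internal coding exons, these were *Cyp4f39* (exon 6, chr17:32483364-32483393, plus strand), *Slc1a6* (exon 2, chr10:78787855-78787884, plus strand), *Scnn1a* (exon 2, chr6:125331089-125331118, plus strand) and *Slc4a5* (exon 10, chr6:83268269-83268298, plus strand), with 4, 4, 7 and 2 CG.
Cyp4f39: agtcatacaggagCGgCGgcaggCGctgCG
Slc1a6: gagagcactgCGcaCGCGcttgCGcctgca
Scnn1a: cccaatccCGccCGctCGgCGCGcagCGCG
Slc4a5: aggCGgcagtggCGgaggggctggaggcag

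In the coding part of last exons, they were *Baiap2l2* (exon 7, chr15:79270459-79270488, minus strand), *Rab6b* (exon 8, chr9:103181223-103181252, plus strand), *Lgr6* (exon 18, chr1:134987738-134987767, minus strand) and *Spi1* (exon 5, chr2:91115261-91115290, plus strand), with 3, 2, 3 and 6 CG.
Baiap2l2: gagcaagccaCGccctccCGgggCGgttgt
Rab6b: agCGagggCGgctgctcctgttaatgcacc
Lgr6: gggatgcctggCGctggcCGggctggcCGc
Spi1: agatggCGCGCGCGctgCGcaactaCGgca

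The summit in exon 51 of the collagen gene *Col5a2* (chr1:45380249-45380278, minus strand) held no CG in its 30 bases and is printed as the contrast, chosen after its sequence was seen.
Col5a2: aacctgggcctcctggccctccaggtcccc

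Members in 3' UTRs were less rich in CpG than coding members. The next stretches are 2 examples with a short factor motif close to the summit, picked for that motif, with the motif in capitals and read on the strand that holds it. In *Zbtb7b* (3' UTR in exon 3, chr3:89378556-89378585, plus strand, with the gene on the minus strand) an AP-1 motif (TGANTCA) covered the summit, with its centre 3 bp away. In *Phldb3* (3' UTR in exon 15, chr7:24629053-24629082, minus strand, with the gene on the plus strand) an SP/KLF motif (GGGCGG) also covered the summit. The stretch of *Zbtb7b* also holds GGGCGG, left in lower case, and the 201 bp around its summit had 71.1% G and C.
Zbtb7b: cgggggcggcgTGAGTCAggggcagcaagc
Phldb3: gcttcctgaagtGGGCGGggccccaaaggc

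The 209 members in the coding part of last exons were drawn from a small amount of sequence. Among exon bases of protein-coding genes more than 2 kb from a TSS, this class made up 8.26% of the bases (4.52 Mb) and 30.1% of the members, which is 46.2 peaks per Mb. Internal coding exons held 28.3% of the bases (15.5 Mb) and 30.8% of the members, or 13.8 peaks per Mb. The 3' UTRs held 46.2% of the bases (25.3 Mb) and 30.1% of the members, or 8.26 peaks per Mb, closer to introns (6.89 per Mb) and intergenic sequence (5.30 per Mb). Exons of noncoding transcripts had 6.28 and 5' UTRs 13.2 peaks per Mb, the latter from 5 peaks. Internal and last-exon coding sequence hardly differed in G and C content, with 50.5% and 51.0%, against 42.7% for 3' UTRs, 42.3% for introns and 40.8% for intergenic sequence. Their CpG content differed more and is given below.

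**Figure D1:**
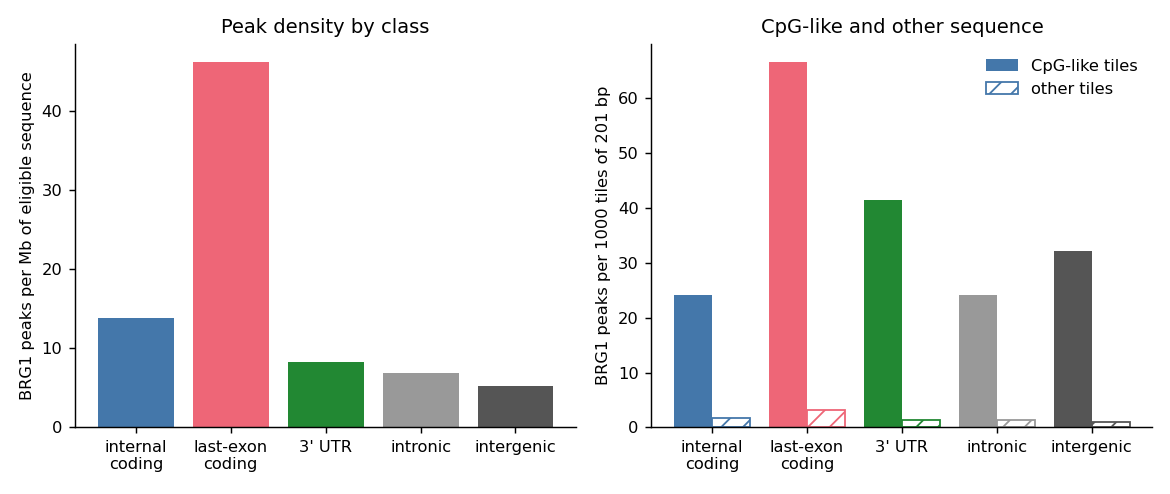
Left, distal BRG1 peaks found in at least 2 replicates per Mb of eligible sequence, by class. Right, peaks with a CpG-like summit window per 1000 CpG-like tiles (filled bars) and all other peaks per 1000 other tiles (hatched bars). Tiles are consecutive windows of 201 bp. Last-exon coding sequence has the highest bar in both panels, at 46.2 peaks per Mb and at 66.6 peaks per 1000 CpG-like tiles.

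Around the summits, G and C content and CpG were also highest in last-exon coding members among the 3 large exonic classes. In the 201 bp around the summit, the median G and C content was 65.2% for last-exon coding, 61.7% for internal coding and 56.2% for 3' UTR members, against 54.7% for both intronic and intergenic peaks. The CpG observed/expected ratio, which is 1 when CpG is as frequent as the C and G content alone would give, had a median of 0.756 in last-exon coding, 0.548 in internal coding and 0.389 in 3' UTR members. It was 0.286 for intronic and 0.338 for intergenic peaks. A window was called CpG-like when it had at least 50% G and C and a ratio of at least 0.6. By this measure 146 of the 209 last-exon coding members (69.9%), 91 of the 214 internal coding members (42.5%) and 38 of the 209 3' UTR members (18.2%) were CpG-like, compared with 6.79% of intronic and 14.8% of intergenic peaks. With windows of 501 bp the shares were 59.8%, 31.8% and 9.57% for the exonic classes, in the same order.

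**Figure D2:**
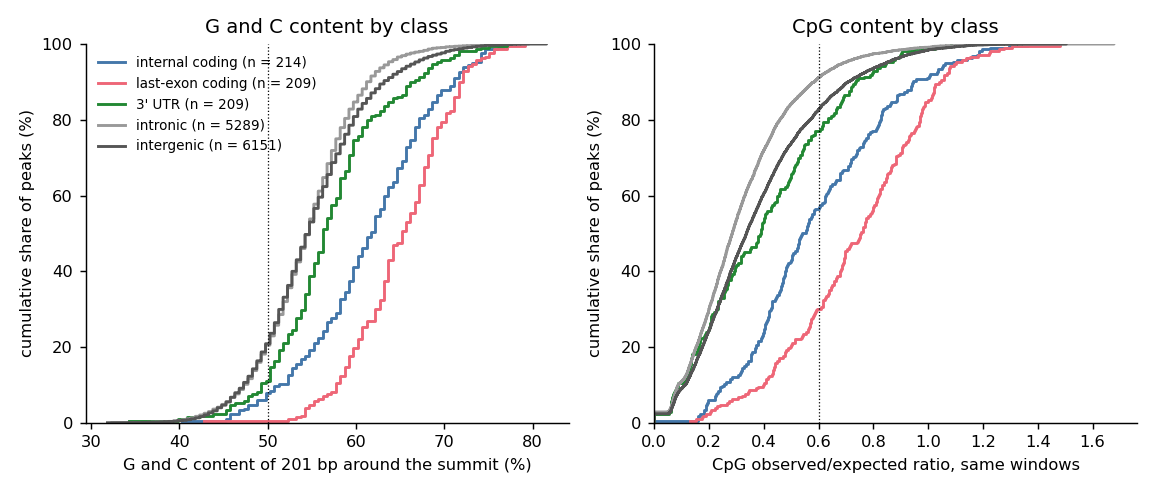
Cumulative share of distal reproducible BRG1 peaks by the G and C content (left) and the CpG observed/expected ratio (right) of the 201 bp around the summit, for the 3 main exonic classes, introns and intergenic sequence. Dotted lines mark the limits of 50% and 0.6 that define a CpG-like window. The curve of the last-exon coding members lies farthest to the right, with medians of 65.2% and 0.756.

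CpG-like sequence was rare in the classes before any peak was called. When each chromosome was tiled in consecutive windows of 201 bp, 9.72% of the last-exon coding tiles, 4.90% of the internal coding tiles and 0.729% of the 3' UTR tiles were CpG-like. Peaks were sorted by the 201 bp around their own summits, not by the tile they fell in. Members with a CpG-like summit window numbered 66.6 per 1000 CpG-like tiles in last-exon coding sequence, 41.4 in 3' UTRs and 24.1 in internal coding exons. Such peaks numbered 24.1 in introns and 32.1 in intergenic sequence. The other members numbered 3.09, 1.37 and 1.68 per 1000 other tiles, against 1.30 and 0.912 for the other peaks. Both ratios were highest for the last-exon coding class. Internal coding exons and introns had the same ratio for CpG-like tiles (24.1), and ratios of 1.68 and 1.30 for the other tiles. The share of tiles that were CpG-like was 4.90% and 0.391%. The part of composition in the peak densities was not tested.

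Members also differed in how they sat in the exon. Internal exons with a member had a median length of 230 bp, shorter than the median peak of 438 bp, and 110 of the 214 peaks (51.4%) spanned the whole exon while 39 (18.2%) lay wholly inside it. Last exons with a coding member had a median length of 1539 bp, and 104 of 209 peaks (49.8%) were wholly inside. In 3' UTRs, where the exon had a median length of 2297 bp, 149 of 209 peaks (71.3%) were inside the exon. The median summit position along the exon was 21.0% of its length for last-exon coding, 60.9% for 3' UTR and 52.6% for internal coding members. In a last exon the coding part precedes the 3' UTR. The class definitions alone would thus place coding summits earlier and 3' UTR summits later. The median distance from the summit to the annotated end of the gene was 1419 bp for last-exon coding, 1058 bp for 3' UTR and 15628 bp for internal coding members. Of the 209 3' UTR members, 207 were in a last exon. The transcripts of a gene gave a different class at the summit in 179 members, of which 88 were counted as internal coding, and 8 members lay in exons of more than 1 gene.

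BRG1 fold enrichment over the local background, as the peak caller wrote it, ranged from 2.68 to 40.7 among the members, with a median of 5.66 and quartiles of 4.70 and 7.24. The medians by class were 6.19 for last-exon coding, 5.46 for internal coding and 5.48 for 3' UTR members, beside 5.56 for intronic and 5.96 for intergenic peaks. A peak was present in all 3 BRG1 replicates for 379 members (54.6%), with 141 of 209 (67.5%) in last-exon coding, 108 of 209 (51.7%) in 3' UTRs and 102 of 214 (47.7%) in internal coding exons. The comparison peaks had 45.6% in introns and 51.7% in intergenic sequence. Without BRG1 replicate 1, 446 exonic peaks were found in both of the other replicates. Within 500 bp of the distance limit, the 49 members just inside it had a median fold enrichment of 5.28, and the 83 exonic peaks just outside it, closer to a TSS, had 5.20. Members in exactly 2 replicates had a median of 4.85 (315 peaks), whereas exonic distal peaks in only 1 replicate, which were not members, had 3.88 (1000 peaks).

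PBRM1 was not used to choose the members. Of the 694 members, 574 (82.7%, 95% Wilson interval 79.7% to 85.3%, which covers counting error only) overlapped a peak of the pooled PBRM1 list by at least 1 bp, and 120 did not. This share was near that of all distal peaks chosen in the same way, of which 82.4% overlapped, and above the 52.3% of all pooled BRG1 peaks on these chromosomes, most of which were found in fewer replicates. Intronic and intergenic distal peaks had shares of 80.5% (79.4% to 81.5%) and 83.8% (82.9% to 84.7%). Within the members the shares were 86.1% (80.8% to 90.2%) for 3' UTR, 82.8% (77.1% to 87.3%) for last-exon coding and 80.4% (74.5% to 85.1%) for internal coding, with intervals that overlap. Where both antigens had a pooled peak, the summits were a median of 73.5 bp apart. The share was 93.4% for members in all 3 BRG1 replicates and 69.8% for those in 2.

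In the single PBRM1 replicates, which hold fewer peaks than the pooled list, the classes lay farther apart. PBRM1 replicates 1, 2 and 3 overlapped 58.4%, 56.0% and 36.8% of the last-exon coding members, a mean of 50.4% ± 11.8 (SD, n = 3). The same replicates overlapped 44.0%, 49.8% and 37.8% of the 3' UTR members (43.9% ± 5.98) and 37.4%, 38.3% and 27.6% of the internal coding members (34.4% ± 5.95). In each replicate the internal coding class had the lowest share of the 3.

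The difference between last-exon and internal coding members was 21.0, 17.7 and 9.27 percentage points in replicates 1, 2 and 3, a mean of 16.0 (two-sided exact paired permutation test over the 3 replicates, p = 0.25, the smallest p that 3 pairs allow, Benjamini-Hochberg adjusted p over 5 tests = 0.625). Between 3' UTR and internal coding members it was 6.64, 11.4 and 10.2 percentage points, a mean of 9.44 (exact paired permutation test, p = 0.25, adjusted p = 0.625). Both differences had the same sign in 3 of 3 replicates, yet the design cannot reach the threshold of 0.05. Composition and BRG1 strength moved with the classes. Among CpG-like windows, 55.3% ± 14.6 of the last-exon coding and 40.3% ± 9.97 of the internal coding members overlapped (SD, n = 3 PBRM1 replicates), and among the other windows 39.2% ± 5.57 and 30.1% ± 5.08. From the lowest to the highest quartile of BRG1 fold enrichment, the last-exon coding shares were 20.1% ± 10.1, 36.4% ± 13.2, 64.5% ± 10.1 and 72.3% ± 14.1. The internal coding shares were 18.2% ± 5.49, 32.7% ± 9.0, 29.9% ± 8.25 and 65.2% ± 2.62, so that the difference was largest in the third quartile. The part of composition and BRG1 strength in the difference was not tested.

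**Figure D3:**
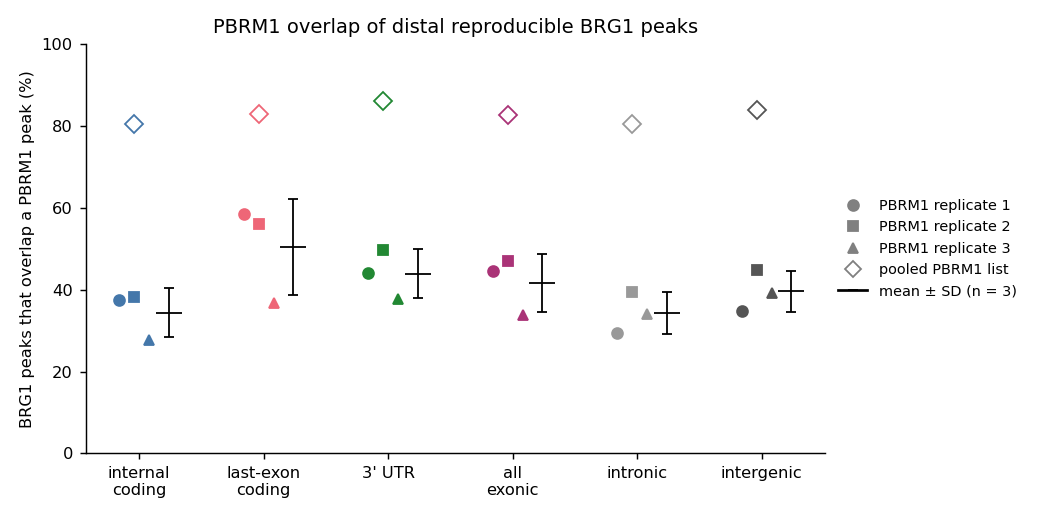
Share of distal reproducible BRG1 peaks that overlapped a PBRM1 peak, by class. Filled symbols are the single PBRM1 replicates, open diamonds the pooled PBRM1 list, and bars the mean ± SD of the 3 replicates. In every replicate the internal coding members are lowest of the 3 exonic classes, while the diamonds all lie between 80.4% and 86.1%.

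Over all members, PBRM1 replicates 1, 2 and 3 overlapped 44.5%, 47.0% and 33.7%, a mean of 41.7% ± 7.05 (SD, n = 3). Intronic peaks had 29.4%, 39.5% and 34.1% (34.3% ± 5.09) and intergenic peaks 34.8%, 44.8% and 39.3% (39.6% ± 5.03). The exonic share was thus above the intronic one in replicates 1 and 2 and not in replicate 3, with differences of 15.2, 7.44 and −0.334 percentage points (mean 7.42, exact paired permutation test, p = 0.5, adjusted p = 0.75). Without replicate 1 this mean was 3.55 and without replicate 3 it was 11.3. Among CpG-like windows the mean exonic minus intronic difference was 1.44 percentage points, and among the other windows 3.24. From the lowest to the highest quartile of G and C content it was 3.02, 6.94, 0.0197 and −5.56. By quartile of BRG1 fold enrichment it was −1.11, 5.08, 8.64 and 12.2. The part of composition and BRG1 strength in this difference was not tested. Against intergenic peaks the differences were 9.77, 2.17 and −5.56 percentage points (mean 2.12, exact paired permutation test, p = 0.75, adjusted p = 0.75), so that the sign varied between replicates, and without replicate 1 the mean was −1.70. Among CpG-like windows, where intergenic peaks overlapped at 58.0% ± 4.18 and exonic members at 49.3% ± 12.2, the difference was −8.66 percentage points (exact paired permutation test, p = 0.5). Of the 694 members, 238 overlapped no PBRM1 replicate, 182 overlapped 1, 135 overlapped 2 and 139 overlapped all 3.

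The single lists were also classified by their own summits, which uses neither the pooled list nor the rule on replicates. Of the distal peaks of BRG1 replicates 1, 2 and 3, 5.84%, 6.12% and 5.65% had an exonic summit (mean 5.87% ± 0.237, SD, n = 3), and of those of the PBRM1 replicates 7.81%, 6.42% and 4.96% (6.40% ± 1.42). The PBRM1 replicates spread over a range that contained all BRG1 replicates. The difference, BRG1 minus PBRM1, was −0.527 percentage points (two-sided exact permutation test of 3 against 3, p = 0.7, adjusted p = 0.75), and the smallest p this design allows is 0.1. PBRM1 replicate 3, with 16505239 fragments the deepest of its group, had the lowest exonic share, and replicate 1, with 8868777 fragments the shallowest, had the highest. Without PBRM1 replicate 1 the difference was 0.179 percentage points and without PBRM1 replicate 3 it was −1.25. Within the exonic peaks, internal coding exons made up 35.4% ± 1.89 in BRG1 and 36.4% ± 3.49 in PBRM1 lists, last-exon coding sequence 26.0% ± 1.11 and 27.4% ± 2.16, and 3' UTRs 30.0% ± 0.717 and 29.1% ± 3.30 (SD, n = 3 each). The means of each class differed by less than the SD of the PBRM1 lists, and those of the last-exon coding and 3' UTR classes by more than the SD of the BRG1 lists. These differences were not tested.

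**Figure D4:**
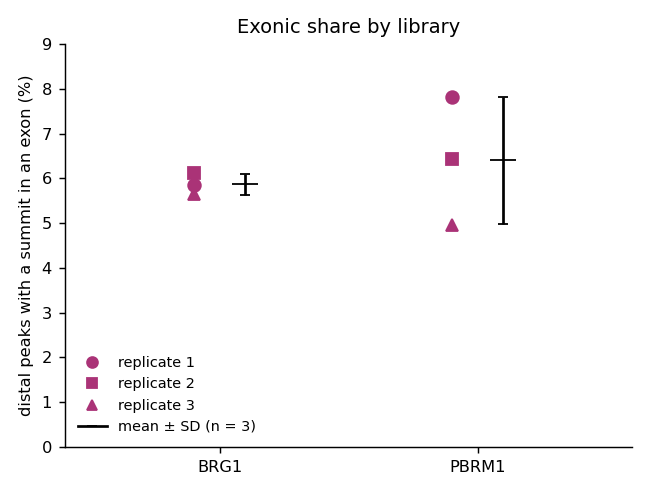
Share of the distal peaks of each replicate list that had a summit in an exon of a protein-coding gene, with the mean ± SD of each antibody. The 3 BRG1 replicates lie between 5.65% and 6.12%, inside the range of the PBRM1 replicates, 4.96% to 7.81%.

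The members with the highest pooled BRG1 fold enrichment in each class, 8 per class and each found in all 3 BRG1 replicates, are described next. All 24 overlapped a pooled PBRM1 peak, and 19 had a PBRM1 peak in all 3 replicates. The pooled share was already 93.4% for members in all 3 BRG1 replicates and 94.5% for members in the highest quartile of BRG1 fold enrichment. Of all 694 members, 139 had a PBRM1 peak in all 3 replicates. CpG-like windows were found at 7 of the 8 internal coding, 7 of the 8 last-exon coding and 0 of the 8 3' UTR members. A fold enrichment is scaled to the background of its own library, so that PBRM1 and BRG1 values stand side by side here without a test.

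The leading internal coding members each had a BRG1 fold enrichment of 7.18 or more in every replicate. At *Cyp4f39*, a cytochrome P450 of fatty acid hydroxylation (chr17:32483135-32483547, exon 6), BRG1 replicates 1, 2 and 3 had fold enrichments of 15.2, 10.6 and 10.7 and PBRM1 replicates 9.28, 11.2 and 5.77. At *Scnn1a*, the alpha subunit of the epithelial sodium channel (chr6:125330677-125331263, exon 2), they had 13.7, 12.4 and 10.8 for BRG1 and 9.78, 9.13 and 6.78 for PBRM1. At both genes replicate 3 was the lowest for PBRM1. At *Slc4a5*, a sodium bicarbonate cotransporter (chr6:83268119-83268614, exon 10), BRG1 had 11.5, 12.8 and 9.96 and PBRM1 10.8, 7.87 and 8.21. *Slc1a6*, a glutamate transporter (chr10:78787517-78788066, exon 2), had means of 10.8 ± 1.09 for BRG1 and 6.74 ± 1.50 for PBRM1, and *Ethe1*, a mitochondrial enzyme of sulfide breakdown (chr7:24593646-24594512, exon 2), had 9.90 ± 0.554 and 8.93 ± 3.69 (SD, n = 3 each). *Itgb4*, which encodes the integrin beta subunit of hemidesmosomes (chr11:116004667-116005724, exon 32), had 10.5 ± 0.884 and 7.75 ± 3.20. The PBRM1 values of *Ethe1* and *Itgb4* varied most, with 13.0 and 11.4 in replicate 1 against 7.81 or less in the other replicates. *Capn11*, a calpain protease (chr17:45642590-45643044, exon 5), had 7.69 ± 0.769 and 6.69 ± 2.51 (SD, n = 3 each).

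*Syne1* and *Srcin1* were the hosts with 3 members, all in internal coding exons. *Syne1* encodes nesprin-1, a giant protein of the nuclear envelope, and its members in exons 125, 55 and 47 had BRG1 means of 7.68 ± 0.279, 6.76 ± 1.58 and 6.20 ± 0.103 (SD, n = 3 each). PBRM1 differed between these exons of *Syne1*, with a peak in 1 replicate at exon 125 (8.86), in 3 at exon 55 (7.49, 6.15 and 4.45) and in 0 at exon 47, although the pooled PBRM1 list had a peak at each. *Srcin1*, an adaptor protein that inhibits Src, had its members in exons 11, 7 and 4 (chr11:97531708-97532131, chr11:97534437-97535285 and chr11:97536969-97537406). Their pooled BRG1 fold enrichments were 9.41, 3.96 and 3.17, and the strongest alone had PBRM1 peaks in all 3 replicates (7.41, 5.04 and 4.10). In all, 632 of the 662 hosts had 1 member, 28 had 2 and 2 had 3, so that members were seldom neighbours in 1 gene.

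The leading last-exon coding members each had a BRG1 fold enrichment of 6.13 or more in every replicate. *Baiap2l2*, which encodes a membrane-binding BAR domain protein (chr15:79270356-79270771, exon 7), had BRG1 fold enrichments of 11.6, 11.2 and 9.66 and PBRM1 fold enrichments of 7.91, 6.81 and 5.04. *Rab6b*, a Golgi-associated GTPase (chr9:103180676-103181380, exon 8), had 12.6, 9.92 and 8.94 for BRG1 and 7.29, 5.46 and 6.24 for PBRM1. *Spi1*, the PU.1 transcription factor of myeloid and B cells (chr2:91115007-91115810, exon 5), had 9.53, 10.8 and 9.36 for BRG1 and 8.70, 6.43 and 4.49 for PBRM1. The BRG1 replicates of these genes lay between 8.94 and 12.6, and their PBRM1 replicates between 4.49 and 8.70. *Krt77*, a type II keratin (chr15:101859392-101860235, exon 9), had means of 8.52 ± 1.05 and 5.80 ± 0.267, and *Vsig8*, a member of the immunoglobulin superfamily (chr1:172562725-172563656, exon 6), had 10.2 ± 1.16 and 7.88 ± 2.46 (SD, n = 3 each). PBRM1 peaks were missing in some replicates at the others. *Lgr6*, a receptor for R-spondins (chr1:134987282-134988156, exon 18), had PBRM1 peaks in replicates 1 and 2 (5.66 and 5.38) beside a BRG1 mean of 9.96 ± 0.490. *Sostdc1*, a secreted antagonist of BMPs (chr12:36317074-36317455, exon 2), had them in replicates 1 and 2 (5.13 and 4.84) beside 7.74 ± 1.39. *Disp2*, of the family that releases hedgehog ligands (chr2:118790420-118791112, exon 8), had a PBRM1 peak in replicate 3 alone (3.78) beside a BRG1 mean of 8.79 ± 1.45 (SD, n = 3 each for BRG1).

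In 3' UTRs, 1 member stood far from the rest. *Lars2*, which encodes the mitochondrial leucyl-tRNA synthetase (chr9:123461814-123462171, exon 21), had BRG1 fold enrichments of 36.6, 37.2 and 34.5 and PBRM1 fold enrichments of 27.6, 27.9 and 28.4. Its pooled peak ranked 6 of the 81327 pooled BRG1 peaks on chromosomes 1 to 19. The 201 bp around its summit also occur elsewhere in the reference, with 7 further matches of at least 100 bp and 90% identity, the best of 97.0% over 169 bp on chromosome 19. Pairs of low mapping quality had been removed by the authors, and the part of these copies in the value was not tested. The next 3' UTR members were at *Ccdc92b* (chr11:74637877-74638962, exon 4), with 11.1, 11.8 and 11.9 for BRG1 and 7.87, 5.90 and 5.18 for PBRM1, and at *Znhit3*, a zinc finger HIT protein (chr11:84911374-84911583, exon 5), with 12.2, 9.74 and 12.0 and with 6.91, 5.50 and 7.10. These values were in the range of the leading coding members. *Zbtb7b*, a transcription factor of T cell lineage choice (chr3:89378341-89379194, exon 3), had means of 9.89 ± 1.10 for BRG1 and 8.62 ± 2.57 for PBRM1 (SD, n = 3 each). *Mmp25*, a membrane-anchored matrix metalloproteinase (chr17:23630300-23630751, exon 10), had 8.88 ± 1.50 and 4.14 ± 0.365, and *Phldb3*, a pleckstrin homology-like domain protein (chr7:24628900-24629349, exon 15), had 9.26 ± 1.87 and 7.01 ± 0.419 (SD, n = 3 each). *Anxa5*, a phospholipid-binding annexin (chr3:36449228-36450165, exon 13), had 8.47 ± 0.658 for BRG1 and PBRM1 peaks in replicates 1 and 2 (6.81 and 7.61). *1700066B19Rik* (chr18:35730232-35730761, exon 2) had 8.92 ± 1.07 and 7.10 ± 0.358 (SD, n = 3 each).

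**Figure D5:**
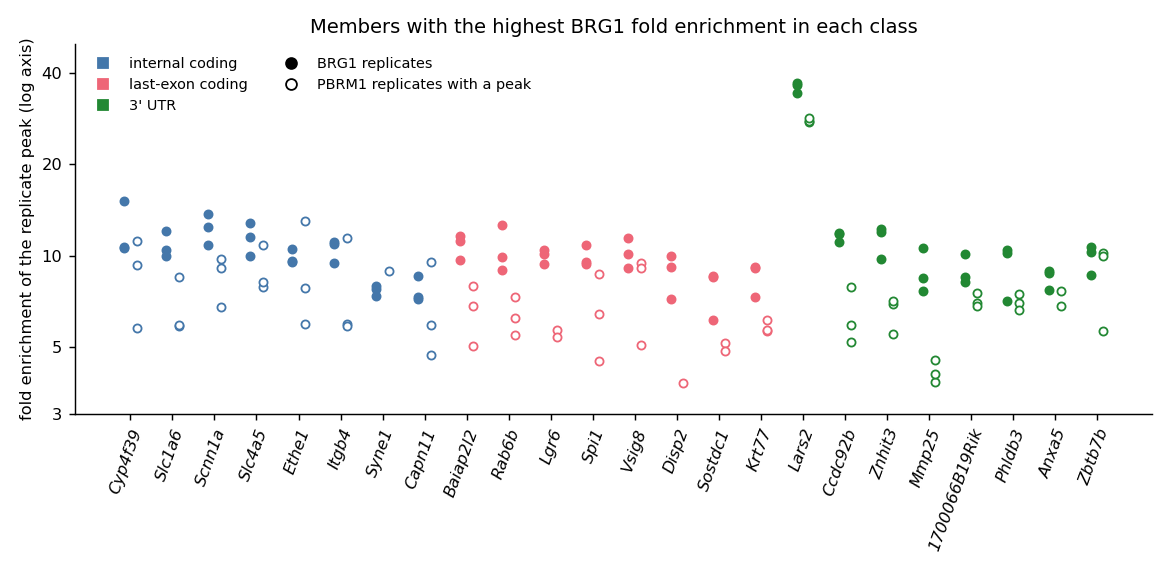
Fold enrichment (log axis) of the replicate peaks at the 8 members of each class with the highest pooled BRG1 fold enrichment. Filled points are BRG1 replicates and open points the PBRM1 replicates that had a peak. *Lars2* stands apart at 34.5 to 37.2 for BRG1 and 27.6 to 28.4 for PBRM1, and the BRG1 replicates of the other 23 members lie at or below 15.2.

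Repeated sequence was otherwise uncommon. A further match of at least 100 bp and 90% identity was found for 15 of the 694 members (2.16%), among them *Cyp4f14*, *Cyp4f16* and *Cyp4f17* of the same P450 subfamily as *Cyp4f39*, the histone gene *Hist1h2be* and the SWI/SNF subunit gene *Ss18*, whose best match was 100% over 120 bp on chromosome 2. The authors' filter on mapping quality removed pairs without a unique alignment, and the effect of the copies on these peaks was not tested. Repeat-masked sequence covered 50% or more of the window in 4 members.

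The members were placed in 662 host genes, which is 3.72% of the 17811 protein-coding genes with exon bases more than 2 kb from a TSS. Of the hosts, 583 (88.1%) also had a pooled BRG1 peak within 2 kb of a TSS, and 547 (82.6%) a pooled PBRM1 peak there, compared with 76.9% and 73.4% of the 17811 genes. Among the 2738 genes around intronic peaks the shares were higher still, at 94.0% and 91.1%. The hosts of last-exon coding members had the lowest shares, 80.7% for BRG1 and 71.0% for PBRM1, against 89.3% and 84.9% for hosts of internal coding and 91.6% and 88.7% for hosts of 3' UTR members. Neither antibody had a promoter peak in 69 hosts (10.4%), of which 37 hosted a last-exon coding member (17.9% of 207 such hosts), 19 an internal coding member (9.27% of 205) and 13 a 3' UTR member (6.40% of 203). Of the 17811 genes, 22.2% had neither. Among the leading members, *Slc4a5*, *Capn11*, *Vsig8*, *Sostdc1* and *Krt77* had an exonic site in all 3 BRG1 replicates and no promoter peak of either antibody in the pooled lists. Of the last-exon coding members, 119 of 169 (70.4%) were CpG-like in hosts with a BRG1 promoter peak and 27 of 40 (67.5%) in hosts without one. An intronic distal peak was also present in 221 hosts (33.4%), compared with 15.3% of the 17811 genes. These genes were not matched for length, and no test was run on these shares.

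Of 62 genes known from progesterone (P4) signaling and implantation with eligible exon bases, 1 hosted a member (1.61%), namely *Wnt5a*, a Wnt ligand of the uterine stroma. Its member in the coding part of exon 5 (chr14:28522579-28522965) had BRG1 fold enrichments of 3.83, 4.29 and 4.21, and 0 of 3 PBRM1 replicates had a peak, while the pooled PBRM1 list had one (3.42). Its pooled BRG1 fold enrichment of 4.73 was below the member median of 5.66. In the extracellular matrix list, 4 of 60 genes were hosts (6.67%), all with internal coding members. *Col5a2*, a fibrillar collagen chain (chr1:45379980-45380372, exon 51), had BRG1 fold enrichments of 7.33, 5.43 and 7.09 and no PBRM1 replicate peak, while the pooled PBRM1 list had one (4.07). *Col6a2* and *Col6a3*, chains of the beaded-filament collagen VI, and *Hspg2*, the basement membrane proteoglycan perlecan, had BRG1 means of 4.33 (2 replicates), 4.65 ± 0.767 (SD, n = 3) and 4.44 (2 replicates).

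Of 25 eligible SWI/SNF subunit genes, *Dpf3* and *Ss18* were hosts. Each had a BRG1 peak in 2 replicates, with means of 4.25 and 4.67. The other lists had hosts at 11 of 372 zinc finger genes named Zfp (2.96%), 1 of 25 *Hox* genes (*Hoxc9*), 0 of 26 ribosomal protein genes, 0 of 37 actin cytoskeleton and adhesion genes and 0 of 1007 olfactory and vomeronasal receptor genes. Of the 415 eligible genes that the study lists as downregulated in *Pbrm1*-deficient cells, 20 (4.82%) hosted a member. All these shares are to be read against the 3.72% of all eligible genes, and with so few hosts most lists cannot be told apart from it.

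Peak lists hold no RNA levels, so the labelled cell type can be checked only by promoter peaks. BRG1 had a promoter peak at 10 of 10 stromal marker genes, among them *Vim*, *Pdgfra* and *Hand2*, and at 0 of 3 leukocyte markers (*Ptprc*, *Cd68* and *Cd3e*). It also had one at 7 of 7 epithelial, 3 of 3 endothelial and 3 of 3 smooth muscle markers, so that a promoter peak did not separate these types. *Spi1*, a gene of myeloid and B cells outside the marker lists, had a BRG1 promoter peak as well. The endothelial marker *Kdr*, a VEGF receptor, hosted a member.

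Motifs were searched as exact strings on both strands of the 201 bp around each summit, and a match describes the sequence without showing that a factor was bound. The CpG-containing motifs were more frequent in members than in the other distal peaks. NRF1 (GCGCNTGCG) was in 5.04% of members, 1.44% of intronic and 2.41% of intergenic windows, with 7.66% in last-exon coding, 6.07% in internal coding and 2.39% in 3' UTR members. SP/KLF (GGGCGG) was in 22.5%, 13.6% and 16.9%, and ETS (CCGGAAG) in 3.03%, 1.74% and 2.81%. In last-exon coding, internal coding and 3' UTR members, SP/KLF was in 23.9%, 19.2% and 23.4% and ETS in 2.39%, 5.14% and 2.39%. The ETS share was thus above the intergenic one in internal coding members only. Motifs without CpG were less frequent, with AP-1 (TGANTCA) in 8.07% of members against 13.2% of intronic and 11.9% of intergenic windows, and the GATA-factor motif AGATAA in 2.45% against 6.45% and 6.58%. The exonic classes differed in AP-1, which was in 2.87% of last-exon coding and 6.54% of internal coding members but in 12.4% of 3' UTR members. TEAD (ACATTCC) was in 1.73% of members, 3.35% of intronic and 3.17% of intergenic windows, and RUNX (TGTGGTT) in 3.03%, 4.42% and 4.49%. The steroid receptor motif (ACANNNTGT, which progesterone, glucocorticoid and androgen receptors share) was in 4.90%, 5.20% and 5.43%, the E-box CATCTG in 19.2%, 21.4% and 20.5%, and the CTCF motif in 2.16%, 2.06% and 2.72%, so that these shares lay close together. CTCF matches were found in 9 of the 209 3' UTR members (4.31%), 3 of the 209 last-exon coding members (1.44%) and 1 of the 214 internal coding members (0.467%).

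RefSeq lists some starts that the GENCODE rule did not use. In its annotation of the same assembly, 50 members (7.20%) were within 2 kb of a TSS, with 19 in last-exon coding (9.09%), 17 in internal coding (7.94%) and 8 in 3' UTR members (3.83%), compared with 6.62% of intronic and 10.0% of intergenic peaks.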

How the data were processed

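ChIC-Seq peak lists for PBRM1 and BRG1 in WT D4 uterine stromal cells, 3 replicates per antibody, were grouped by the sample labels. According to the methods and file headers, the authors aligned read pairs to mm10 with Bowtie2 2.3.5, removed multimapping pairs with samtools 1.9 and duplicates with Picard 2.21.4, and called peaks with MACS 2.2.7.1 per replicate and on pooled fragments, at a q-value of 0.05 and without a control file, so that sequence that collects fragments with any antibody is not removed. For each peak the deposited values are the pileup signal at the summit, the fold enrichment ratio over local background and the −log10 of the p- and q-values. The PBRM1 replicates held between 8868777 and 16505239 fragments, the BRG1 replicates between 11506964 and 14595089.

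From these lists, overlaps (at least 1 bp), classes (GENCODE vM21, coding before 3' UTR before 5' UTR, internal or last by most transcripts at the summit) and sequence features (RefSeq GRCm38.p6) were computed in Python 3.11.15 with numpy 2.4.6, pandas 2.3.3, scipy 1.17.1, pysam 0.24.0 and matplotlib 3.10.9, with samtools 1.23.1 and blastn 2.17.0+. The overlap and class steps were tested on simulated data. Differences were tested with exact permutation tests over libraries and Benjamini-Hochberg adjustment over 5 tests, and p-values measure the spread between these libraries. Across 12803 peaks, r between same-numbered replicates of the antibodies was −0.0422, −0.0127 and −0.0120, and between differently numbered ones −0.0147 to 0.0273. These values run over peaks, not libraries, and cannot show whether same-numbered libraries share a preparation. Named genes were the 8 members per class with the highest BRG1 fold enrichment in all 3 replicates, hosts of 3 or more members and hosts in the progesterone, matrix and SWI/SNF lists. *Kdr*, *Hoxc9* and the genes with further copies were named after their values were seen. The members, lists and motifs were chosen with earlier results of these data known. Alternatives were other distances, overlaps, thresholds, gene models and class orders, strata of BRG1 fold enrichment, and each replicate left out. Strata of G and C and CpG content, RefSeq TSSs, repeat masking and the search for copies were added after the data were seen.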

Additional observations from a re-analysis of the deposited data

How the results depend on the processing

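The number of members was 379 with a peak in all 3 BRG1 replicates, 434 at a TSS distance of 5000 bp and 346 at a −log10 q of 5 or more. It rose from 694 to 884 at a TSS distance of 1000 bp and to 871 with the basic GENCODE transcripts. Leaving out a BRG1 replicate gave 446 to 513 members, lowest without replicate 1. The pooled PBRM1 share was 93.4%, 88.2% and 87.7% to 89.1% in all 3 replicates, at the stricter q and without a BRG1 replicate. The 3' UTR share of members was 33.7% when at least 50% of the peak had to lie in exons. The signs of 3 differences in PBRM1 overlap and of the exonic share turned in places. Exonic minus intergenic was −2.12 percentage points in quartile 1 of BRG1 fold enrichment, −3.27 and −14.3 in quartiles 3 and 4 of G and C content, −8.66 in CpG-like windows, and −1.70 to 5.97 when a replicate was left out, negative without PBRM1 replicate 1. Exonic minus intronic was −1.11 in quartile 1 of fold enrichment and −5.56 in quartile 4 of G and C content. Last-exon minus internal coding was −16.7 in quartile 1 of G and C content, which holds 1 last-exon coding member, and positive in the other 25 alternatives. The exonic share, BRG1 minus PBRM1, ranged from −1.25 to 0.179 percentage points when a replicate was left out, positive without PBRM1 replicate 1. The causes were not tested. The difference of 3' UTR and internal coding members was positive in all 26 alternatives (1.15 to 23.3). No result passed the test's threshold under any alternative, which designs of 3 libraries do not allow.

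As a paired analysis, the exonic share with the replicate block had a difference of −0.527 percentage points (exact paired permutation test, p = 0.75). The replicate numbers were shared by label only, and the block changed no call.

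Peak lists give no value where no peak was called, so that a signal below the calling threshold of a replicate was not measured here.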

Other observations

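The 56 members in exons of noncoding transcripts of protein-coding genes were less rich in G, C and CpG than the coding members. Of these, 47 lay in last exons of such transcripts, 4 (7.14%) were CpG-like, and the median G and C content was 54.2%, near the 54.7% of intronic peaks. AP-1 motifs were in 10 of them (17.9%) and SP/KLF motifs in 15 (26.8%). PBRM1 overlapped 78.6% of them in the pooled list (95% Wilson interval 66.2% to 87.3%) and 23.2%, 37.5% and 30.4% in replicates 1, 2 and 3. The 5 members in 5' UTRs had a median BRG1 fold enrichment of 5.42, and 4 of them overlapped the pooled PBRM1 list.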
